A study of Mus musculus with 52 samples.

Results

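The 38 genes described here encode proteins of the sarcomere, the contractile unit of striated muscle, and were chosen by a list of mouse symbols. Each symbol matched 1 row of the deposited count table, which holds 55487 genes, and all 38 passed the filter on low counts that left 16668 genes for testing. By textbook knowledge, 8 members are slow-fibre forms (Tnnt1, Tnni1, Tnnc1, Myl2, Myl3, Tpm3, Myoz2 and Mybpc1) and 12 are fast-fibre forms (Tnnt3, Tnni2, Tnnc2, Myl1, Mylpf, Tpm1, Myoz1, Myoz3, Mybpc2, Actn3, Myom2 and Mylk2). The other 18 were not assigned to a fibre type. Tpm1 and Actn2, although paired below with a form of the opposite fibre type, are not restricted to one type of fibre.

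RNA of the gastrocnemius, a calf muscle made mostly of fast fibres, was sequenced from aged male C57BL/6 mice of 22 to 24 months, in 52 libraries that fall into 13 groups of 4. Unloaded mice (HU) had their hind limbs lifted off the ground and were given metformin (HU_M), leucine (HU_L), both (HU_ML) or plain water (HU_W) to drink. The same 4 drinks were used in mice whose limbs, once unloaded, bore weight again for 7 d (RL7_M, RL7_L, RL7_ML, RL7_W) or 14 d (RL14_M, RL14_L, RL14_ML, RL14_W), called reloading. AMB_W stands for ambulatory controls on water, and a library is called by its group and the replicate number of its title. All animals were old males of 1 strain, so young or female muscle was not examined, and the labels do not say whether any mice shared a cage or were pooled.

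The sarcomere is built of thick filaments of myosin and thin filaments of actin, held in register by titin, by the Z disc at its ends and by the M band in its middle. Calcium binding to troponin C moves tropomyosin on the thin filament and lets myosin pull. Slow and fast fibres use different genes for the same part, so the ratio of 2 paralogues is commonly read as a sign of the fibre mix. Unloading of hind limbs is known to cause wasting and, in slow muscles, a shift towards fast forms.

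The library totals ran from 15605044 to 32492548 counts. The 38 members took between 23.81% and 32.44% of all counts (median 29.98%), and titin (Ttn), whose transcript is the longest of the list, took 15.8% to 21.3% alone. The 6 skeletal muscle markers, of which Acta1 is a member, summed to between 63670 and 113000 CPM, the counts of a gene scaled to a common library size, in every library. The 5 heart markers summed to at most 7.755 CPM, with 1 to 4 of the 5 at 0 counts in a library. Some libraries stood apart: RL14_ML 1 and RL14_ML 6 deviated from their group in many members, and 12 libraries held over 16 CPM of the liver transcript Alb. A 5.8S ribosomal RNA gene, which the removal of ribosomal RNA should deplete, also differed between groups, and its level is given beside each comparison with water, unloading or ambulation; where the ranges of both groups are apart, its part in a result cannot be told apart from the group.

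A RefSeq table of promoters (GRCm38.p6) held 27 of the 38 members. Shown are the 250 bases before the RefSeq start of the slow and the fast gene for troponin C (Tnnc1 and Tnnc2) and for the essential myosin light chain (Myl3 and Myl1), because the slow and the fast form of each pair varied so differently between libraries. Tnnc1 is at chr14:31208062-31208311 on the plus strand, Tnnc2 at chr2:164779735-164779984 on the minus strand, Myl3 at chr9:110763428-110763677 on the plus strand and Myl1 at chr1:66945057-66945306 on the minus strand. Capitals mark 2 motifs searched on both strands, the E-box CANNTG, bound by the myogenic factors of the MyoD family, and the MCAT element CATTCC, bound by TEAD factors.
Tnnc1: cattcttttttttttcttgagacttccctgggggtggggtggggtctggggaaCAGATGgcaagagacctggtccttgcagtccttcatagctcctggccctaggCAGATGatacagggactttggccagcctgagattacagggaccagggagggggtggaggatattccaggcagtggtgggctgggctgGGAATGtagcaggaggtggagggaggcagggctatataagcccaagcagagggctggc
Tnnc2: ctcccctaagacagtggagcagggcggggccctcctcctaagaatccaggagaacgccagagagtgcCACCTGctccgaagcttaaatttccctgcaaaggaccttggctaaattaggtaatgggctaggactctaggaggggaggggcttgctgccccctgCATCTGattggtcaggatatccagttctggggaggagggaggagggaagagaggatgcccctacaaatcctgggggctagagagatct
Myl3: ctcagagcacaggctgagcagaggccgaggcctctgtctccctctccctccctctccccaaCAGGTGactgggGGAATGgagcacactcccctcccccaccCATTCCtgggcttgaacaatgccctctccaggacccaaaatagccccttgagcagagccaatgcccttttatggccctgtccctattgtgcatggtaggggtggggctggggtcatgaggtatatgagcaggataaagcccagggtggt
Myl1: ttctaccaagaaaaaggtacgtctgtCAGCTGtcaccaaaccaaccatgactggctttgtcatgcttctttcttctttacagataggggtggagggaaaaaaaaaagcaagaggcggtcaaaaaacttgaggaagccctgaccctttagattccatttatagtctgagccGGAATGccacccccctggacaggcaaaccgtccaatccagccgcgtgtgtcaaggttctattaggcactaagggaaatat
An E-box was found in all 8 slow forms and in all 5 fast forms with a promoter in the table, against 66.0% of 27025 promoters of the same length. MCAT was found in 2 of 8 slow and 3 of 5 fast forms, against 12.6% of all promoters, and a TATA box spelled TATAAA in 1 of 8 slow and 1 of 5 fast forms, against 13%. These matches describe letters in a window and do not tell the slow promoters from the fast ones.

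Fast forms dominated in every library. Per kb of exon, the most abundant member was Tnnt3, the fast troponin T, with a median of 6030 CPM per kb over 52 libraries, followed by skeletal alpha-actin (Acta1) with 5440, Tnnc2 with 3150, Tnni2 with 2710 and the fast regulatory light chain Mylpf with 2650 CPM per kb. At the low end were the slow troponin I Tnni1 with 2.52, Myom3, an M-band protein, with 7.72, Myl3 with 13.2 and Tpm3 with 14.2 CPM per kb. The summed level of the 8 slow forms ran from 186.4 to 2392 CPM (median 1040), and that of the 12 fast forms from 25390 to 64480 CPM (median 47560). Mybpc1 made up much of the slow sum, with a median of 691.9 CPM alone. In RL14_W 3, the library with the lowest slow sum, Mybpc1 had 168.1 of the 186.4 CPM. Expressed per length, the slow share of a pair had a median of 0.0943% for Tnni1 and Tnni2, 0.278% for Tnnt1 and Tnnt3, 0.47% for Myl3 and Myl1, 0.556% for Tnnc1 and Tnnc2, 0.842% for Tpm3 and Tpm1, and 0.99% for Myl2 and Mylpf. The pairs of the Z disc and the thick filament were less one-sided, with medians of 7.68% for the calsarcins Myoz2 and Myoz1, 6.91% for the alpha-actinins Actn2 and Actn3, and 10.9% for the myosin-binding proteins Mybpc1 and Mybpc2.

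**Figure D1:**
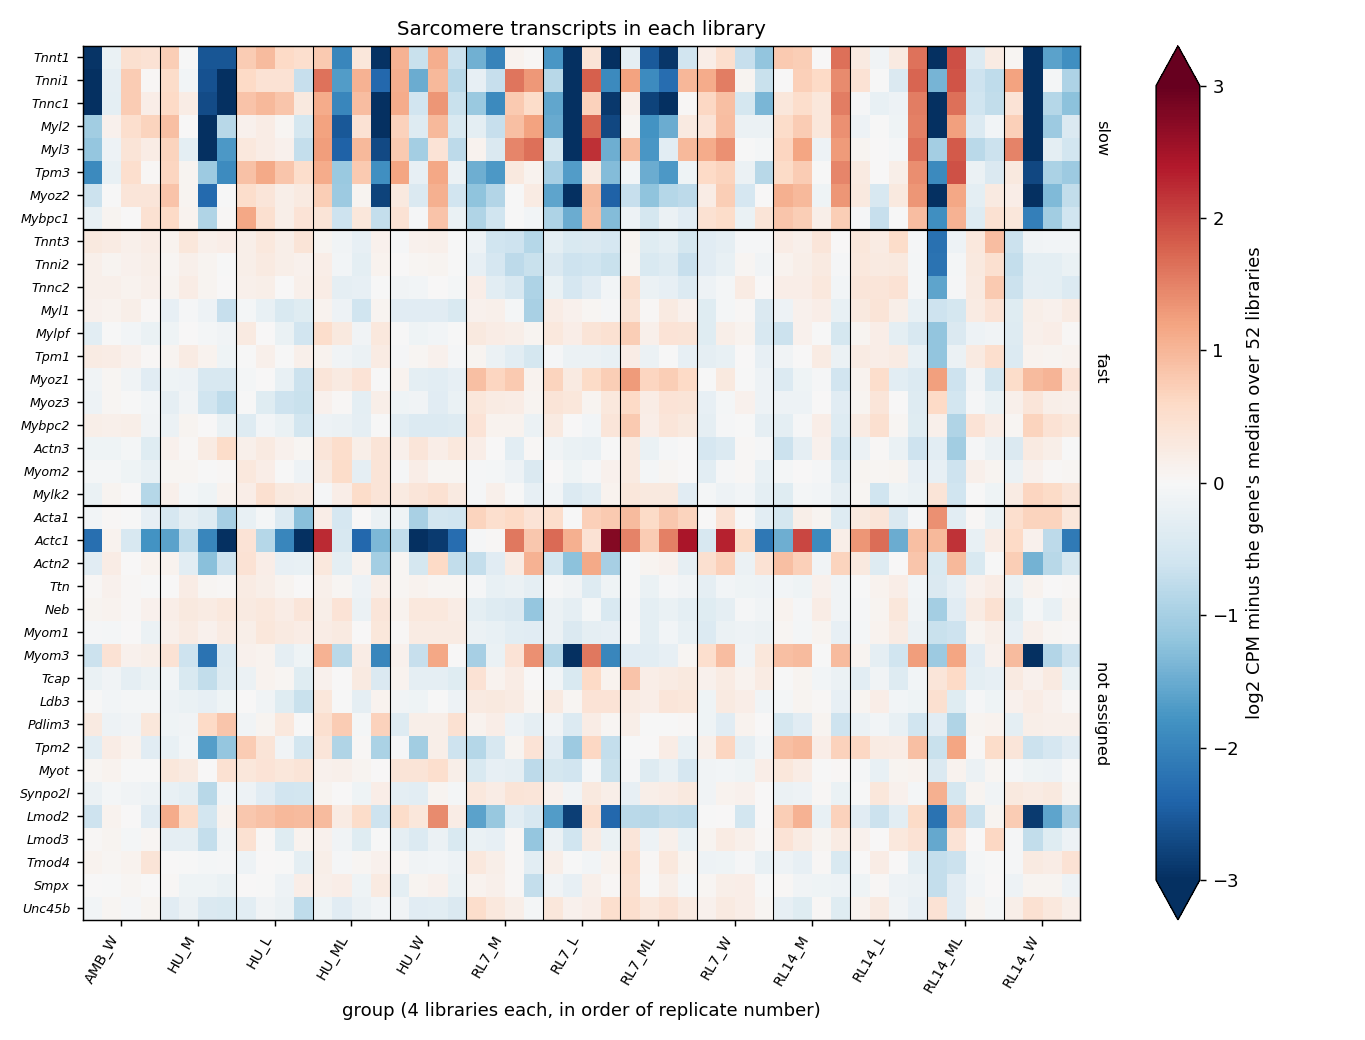
Level of each of the 38 members (rows) in each of the 52 libraries (columns, 4 per group), as log2 CPM minus the median of that gene over all libraries; red is above and blue below the median, and the scale ends at 3 log2 units. The 8 slow forms at the top swing together from library to library within the groups, with RL7_L 2 and RL14_W 3 dark blue, while most of the 12 fast forms stay near their median except in RL14_ML 1.

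The slow forms varied more between libraries of the same group than the fast forms did. The standard deviation of log2 CPM within groups, pooled over the 13 groups, had a median of 1.58 over the 8 slow forms, from 0.672 for Mybpc1 to 1.75 for Tnnc1. It had a median of 0.27 over the 12 fast forms, from 0.192 for Myom2 to 0.419 for Tnnt3, and a median of 0.322 over all 16668 genes. Tnnt1, with 1.69, had a wider spread than 99.8% of all genes tested. In these whole-tissue samples, each from a piece of 25 to 30 mg, fewer slow fibres and less slow RNA per fibre cannot be told apart.

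Tnnt1, the slow troponin T that anchors the troponin complex to tropomyosin, shows the size of these differences. In ambulatory mice it had 6.08, 41.1, 65.4 and 63.0 CPM. Unloaded mice had 79.0, 46.3, 7.93 and 7.95 CPM on metformin, 79.7, 91.4, 70.9 and 67.0 CPM on leucine, 81.6, 12.1, 59.96 and 6.03 CPM on both, and 96.6, 29.5, 100.3 and 30.2 CPM on water. After 7 d of reloading the 4 drinks gave 17.2, 11.7, 50.8 and 48.3 CPM (metformin), 14.0, 0.555, 61.7 and 4.74 CPM (leucine), 38.8, 8.18, 6.20 and 31.7 CPM (both) and 53.6, 67.1, 28.9 and 20.7 CPM (water). HU_L was the most even of these groups, and RL7_L the widest, with RL7_L 2 at 13 counts. After 14 d the values were 81.3, 78.2, 47.8 and 148.6 CPM on metformin, 56.6, 43.4, 56.8 and 144.9 CPM on leucine, 1.34, 179.5, 35.5 and 55.5 CPM on both, and 49.1, 0.734, 15.5 and 13.2 CPM on water. The range of HU_L lay just above that of AMB_W, and those of the other 11 groups overlapped with it.

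Its fast counterpart Tnnt3 was steadier. It had 11670, 11270, 10650 and 11110 CPM in AMB_W, and in the unloaded groups 10250 to 12050 CPM on metformin, 10760 to 12520 CPM on leucine, 8057 to 10520 CPM on both and 9384 to 10590 CPM on water. After 7 d of reloading it lay between 5281 and 8633 CPM in RL7_M, 6698 and 7806 CPM in RL7_L, 6609 and 10090 CPM in RL7_ML, and 7531 and 9329 CPM in RL7_W, all below the lowest ambulatory value. After 14 d it had 11120, 10540, 12230 and 9548 CPM in RL14_M, 12000, 11380, 13950 and 9342 CPM in RL14_L, 2033, 8546, 11870 and 18160 CPM in RL14_ML, and 6111, 8819, 9049 and 9032 CPM in RL14_W. RL14_ML held both the lowest and the highest library of the series.

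**Figure D2:**
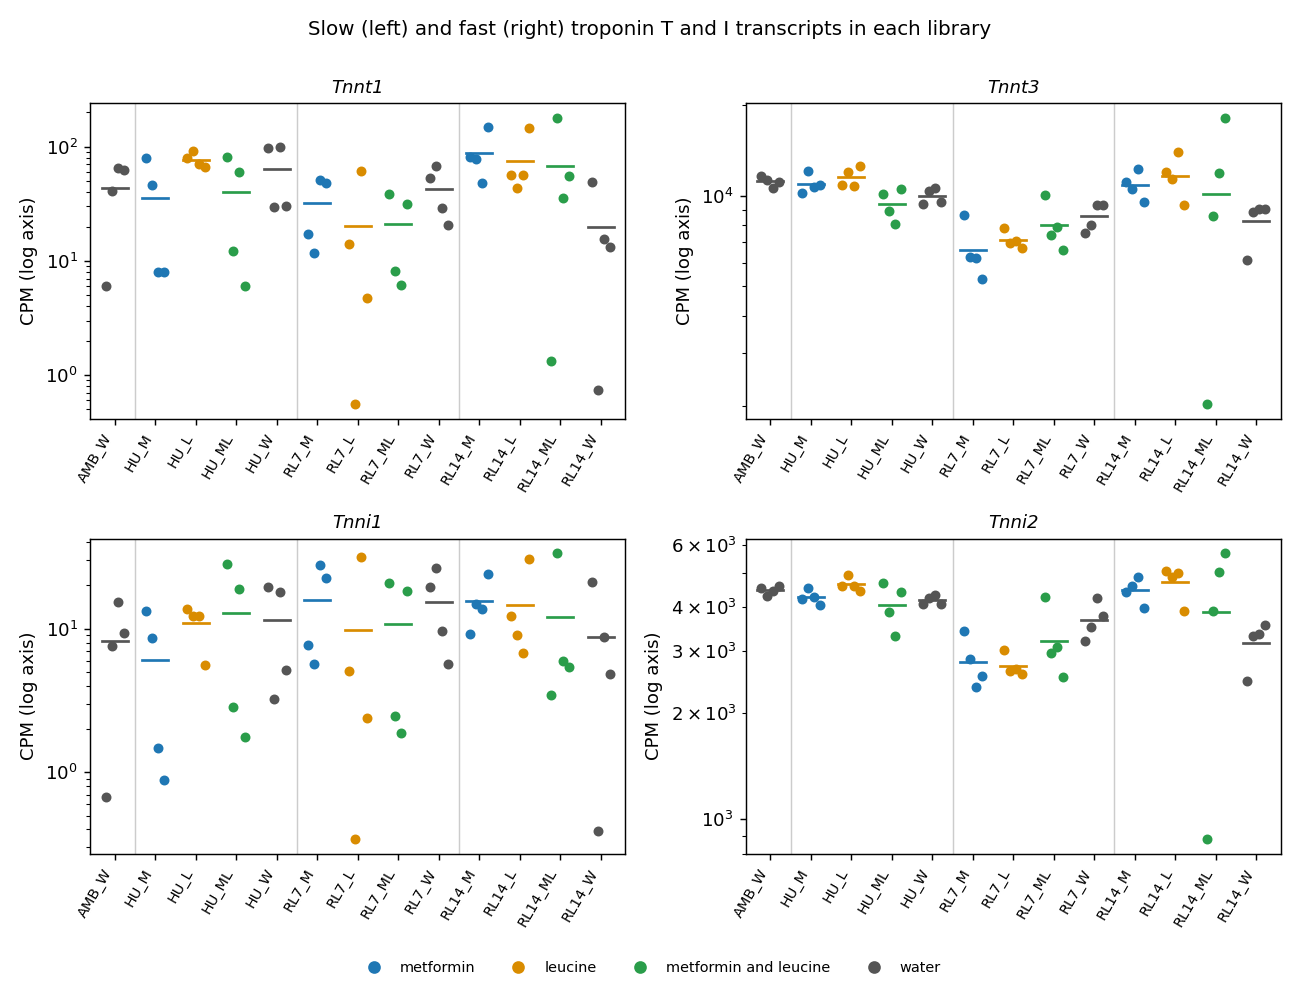
CPM on a log axis of the slow (Tnnt1, Tnni1) and fast (Tnnt3, Tnni2) forms of troponin T and troponin I in the 13 groups; each point is a library and each short line the group mean of 4 libraries. The slow forms spread over 10-fold or more within several groups, whereas the fast forms mostly stay within 2-fold, with RL14_ML 1 at 2033 CPM of Tnnt3 and 877.9 CPM of Tnni2 as the exception.

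The other slow forms followed Tnnt1 through the libraries. In each group the library with the lowest Tnnt1 was noted, and the other 7 slow forms had their own lowest value in that library in 8 to 12 of the 13 groups. The highest library was shared in 9 to 13 groups. For the fast forms these numbers were 1 to 6 (median 2) and 1 to 4, and over all genes tested the median was 3 for both, so the slow forms shared their extremes more often than most genes. These counts come from the same libraries and carry no test. RL14_W 3 held the lowest level of Tnnc1, Myl2, Tpm3, Myoz2 and Mybpc1, and RL7_L 2 the lowest of Tnnt1, Tnni1 and Myl3, at 7 to 13 counts for Tnnt1, Tnni1, Tnnc1, Myl2 and Myl3. The highest levels lay in RL14_ML 3 for Tnnt1, Tnni1, Tnnc1 and Tpm3, in RL7_L 3 for Myl2 and Myl3, in RL14_L 5 for Myoz2 and in HU_L 1 for Mybpc1. From its lowest to its highest library Myl2 spanned 346-fold, Tnnt1 323-fold, Myl3 220-fold and Tnnc1 217-fold, against 2.25-fold for Myom2 and 8.93-fold for Tnnt3.

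Some members not assigned to a fibre type went with the slow forms. Lmod2, a leiomodin that elongates thin filaments, Actn2, alpha-actinin of the Z disc in all fibres, Myom3 and the beta-tropomyosin Tpm2 each shared the lowest library with Tnnt1 in 8 of 13 groups, and their within-group spreads were 0.806, 0.61, 1.06 and 0.542. Slow-fibre genes outside the list did the same. The slow myosin heavy chain Myh7 shared the lowest library in 11 and the highest in 12 groups, the calcium pump Atp2a2 in 11 and 12, the calsequestrin Casq2 in 10 and 9, Myh7b in 10 and 11, and phospholamban (Pln) in 5 and 11. The fast heavy chain Myh4 shared them in 1 and 2 groups, and Myh1, the heavy chain of IIX fibres, in 9 and 5. Cardiac alpha-actin (Actc1), which muscle makes in development and regeneration, varied as widely (spread 1.38; 3.20 to 333.9 CPM) but shared its extremes with Tnnt1 in only 5 and 5 groups.

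**Figure D3:**
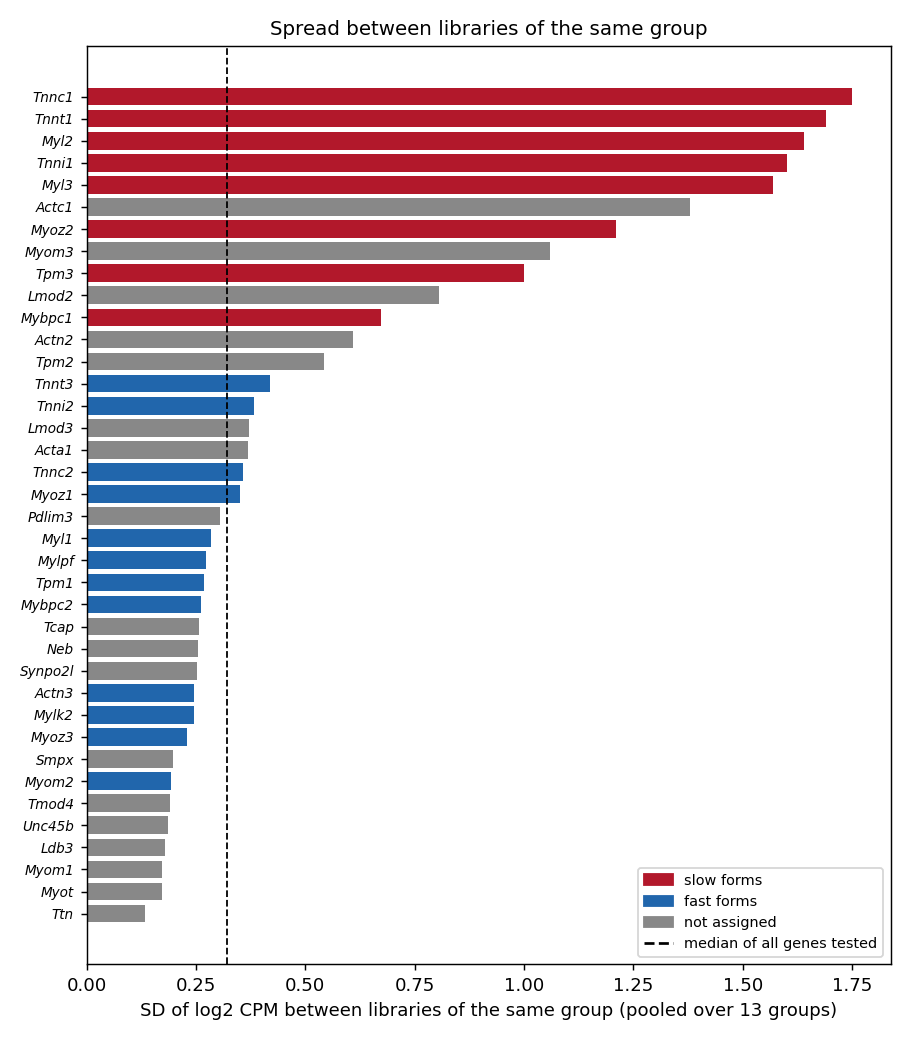
Standard deviation of log2 CPM between libraries of the same group, pooled over 13 groups, for the 38 members; bars are red for slow forms, blue for fast forms and grey for the others, and the dashed line is the median of all genes tested (0.322). All 8 slow forms lie above the line, from 0.672 for Mybpc1 to 1.75 for Tnnc1, and 8 of the 12 fast forms lie below it.

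What unloading did was asked with HU_W against AMB_W. None of the 38 members changed (edgeR, adjusted p under 0.05), where 2.78% of all genes tested did; 6 members had an unadjusted p under 0.05, where 13.7% of all genes did, and DESeq2 called 1 member, Mylk2, and 3.77% of genes. The nearest to the threshold lay on both sides. Mylk2, the kinase of the fast regulatory light chain, had 424.6, 452.5, 478.1 and 420.6 CPM in HU_W, against 305.8, 369.5, 351.5 and 191.9 CPM in AMB_W, a log2 fold change of 0.54 ± 0.17 (SE; edgeR adjusted p = 0.0644). Actn3, the alpha-actinin of fast fibres, had 6500, 7555, 6667 and 7218 CPM in HU_W, against 5365, 5304, 5578 and 4566 CPM in AMB_W (0.42 ± 0.17, adjusted p = 0.216). In the other direction, Mybpc2 had 3621, 3391, 3397 and 3458 CPM in HU_W, against 5085, 5032, 5111 and 4188 CPM in AMB_W (-0.49 ± 0.18, adjusted p = 0.161), and Myl1 had 4217, 4186, 4156 and 3858 CPM in HU_W, against 5834, 5685, 5958 and 5406 CPM in AMB_W (-0.48 ± 0.19, adjusted p = 0.216). In these 4 genes the libraries of both groups did not overlap, which held for 13 of 38 members and for 13% of all genes tested. Of 5 red blood cell markers 4 were higher, with summed levels of 26.69 to 58.6 CPM in HU_W, against 2.804 to 6.395 CPM in AMB_W. Of the fibroblast markers Col1a1 and Col3a1 were lower (log2 fold changes -2.15 and -1.65, edgeR adjusted p = 0.0253 and 0.0268), while the summed fibroblast markers ran from 408.5 to 470.5 CPM in HU_W, against 372.8 to 529.7 CPM in AMB_W. The part of these markers in the result was not tested. Levels of 5.8S RNA overlapped, with 7.993 to 13.81 CPM in HU_W, against 7.643 to 14.47 CPM in AMB_W.

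No slow form passed the test with unloading, and the errors of the slow forms were wide. Their median log2 fold change in HU_W against AMB_W was 0.347, with a median SE of 0.955, and the lowest adjusted p was 0.672 (edgeR). Myl3 had 46.3, 13.3, 35.8 and 15.7 CPM in HU_W, against 12.01, 24.1, 35.4 and 31.4 CPM in AMB_W. Tpm3, the slow tropomyosin, had 196.6, 73.5, 194.5 and 76.8 CPM in HU_W, against 23.2, 74.9, 122.7 and 89.4 CPM in AMB_W. Tnnc1 had 51.1, 15.9, 59.5 and 14.8 CPM in HU_W, against 2.08, 19.2, 39.7 and 27.1 CPM in AMB_W. In all 3 genes HU_W 1 and HU_W 3 were the high libraries and AMB_W 2 the low one. The summed level of 5 slow-fibre genes outside the list was also highest in HU_W 1 and HU_W 3 (959.2 and 955.0 CPM) and lowest in AMB_W 2 (107.3 CPM). The member with the largest positive fold change was Lmod2, with 179.1, 155.1, 323.9 and 141.1 CPM in HU_W, against 79.6, 129.9, 122.1 and 96.1 CPM in AMB_W (0.90 ± 0.57, adjusted p = 0.522), and the one with the most negative was Actc1 (-1.20 ± 0.97, adjusted p = 0.659).

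Reloading for 7 d was set against unloading with RL7_W against HU_W, and 2 members changed, 1 in each direction, where 4.88% of all genes did, 1.97% higher and 2.9% lower. Unc45b (chr11:82910550-82943403, plus strand, GRCm38), a chaperone that folds the myosin head, rose, and Myom1 (chr17:71002633-71126856, plus strand), which crosslinks myosin filaments in the M band, fell. Unc45b had 158.2, 176.7, 166.4 and 152.5 CPM in RL7_W, against 135.3, 114.2, 117.7 and 107.2 CPM in HU_W, a log2 fold change of 0.46 ± 0.13 (SE; edgeR adjusted p = 0.0312). Myom1 had 1838, 2160, 2201 and 2177 CPM in RL7_W, against 2520, 2911, 2901 and 2925 CPM in HU_W (-0.43 ± 0.13, edgeR adjusted p = 0.0418). For both genes the libraries of the 2 groups were apart, which held for 11 of 38 members and for 2866 of 16668 genes tested. Both calls were near the threshold: leaving out 1 of the 8 libraries kept Unc45b in 2 of 8 cases (adjusted p up to 0.112, kept only without HU_W 1 or RL7_W 4) and Myom1 in 1 of 8 (up to 0.15, kept only without HU_W 1), and neither held with 5.8S RNA as a covariate (adjusted p = 0.14 and 0.117). 5.8S RNA ran from 2.91 to 7.39 CPM in RL7_W, against 7.993 to 13.81 CPM in HU_W, so 5.8S RNA and reloading cannot be told apart in that fit. Some markers of other cells moved with the comparison as well. The red blood cell markers Hbb-bs and Alas2 were lower (log2 fold changes -1.88 and -1.74, edgeR adjusted p = 0.0428 and 0.0483), and the 5 of them summed to 8.168 to 16.84 CPM in RL7_W, against 26.69 to 58.6 CPM in HU_W. The endothelial marker Kdr was higher (1.24, adjusted p = 0.00111), with summed endothelial markers of 188.8 to 250.1 CPM in RL7_W, against 136.7 to 170.0 CPM in HU_W. Of 5 smooth muscle markers Smtn alone was called, and it was higher (0.49, edgeR adjusted p = 0.0447). The median log2 fold change of the 5 was -0.00416. Their sums overlapped, with 70.23 to 117.6 CPM in RL7_W, against 67.47 to 96.47 CPM in HU_W. The part of these markers in the result was not tested. Exons of Unc45b overlap those of genes on the opposite strand by 406 bases and exons of Myom1 by 207, and the strand setting of the counting is not known here.

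Other members with small p in RL7_W against HU_W did not pass. Myot, a Z-disc protein that binds filamin and actinin, had 828.9, 851.2, 821.1 and 1022 CPM in RL7_W, against 1167, 1170, 1267 and 1012 CPM in HU_W (-0.39 ± 0.13, edgeR adjusted p = 0.0622). Mylk2 had 336.0, 312.5, 331.9 and 285.5 CPM in RL7_W, against 424.6, 452.5, 478.1 and 420.6 CPM in HU_W (-0.49 ± 0.17, adjusted p = 0.0744). Actc1 had the largest fold change (2.87 ± 1.01, adjusted p = 0.0908), with 35.7, 244.8, 73.2 and 11.2 CPM in RL7_W, against 29.6, 3.26, 6.79 and 10.2 CPM in HU_W, and RL7_W 4 lay within the HU_W range. DESeq2 called 6 members here, Actc1, Actn3, Mylk2, Myom1, Myot and Unc45b, and 8.1% of genes. Of the other sarcomere genes, 1 of 28 tested changed: Nrap, a scaffold of assembling myofibrils, had 1790 ± 177 CPM in RL7_W and 2597 ± 527 CPM in HU_W (SD, n = 4 each; edgeR adjusted p = 0.0491). No slow form had an adjusted p below 0.729.

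Set against ambulatory mice, no member changed in the reloaded water groups, nor between the times of reloading. In RL7_W against AMB_W edgeR called 0 of 38 members and 0% of all genes, with 2 members and 8.05% of genes at an unadjusted p under 0.05 and 0 members and 0.133% of genes by DESeq2. Tnnt3 had the most negative fold change (-0.39 ± 0.26, adjusted p = 0.686), and Actc1 the most positive (1.68 ± 0.96, adjusted p = 0.652). In RL14_W against RL7_W edgeR called 0 members and 0.036% of all genes, with 4 members and 11.4% of genes at an unadjusted p under 0.05 and 0 members and 0.222% of genes by DESeq2. Myoz1, the fast calsarcin that links calcineurin to the Z disc, had 581.4, 764.8, 804.8 and 523.1 CPM in RL14_W, against 391.1, 486.5, 394.8 and 354.7 CPM in RL7_W (0.72 ± 0.24, edgeR adjusted p = 0.302), and Tnnt1 had the most negative fold change (-1.12 ± 1.00, adjusted p = 0.689). In RL14_W against AMB_W edgeR called 0 members and 0.174% of all genes, with 6 members and 17.9% of genes at an unadjusted p under 0.05 and 2 members, Mylk2 and Myoz1, and 2.47% of genes by DESeq2. Myoz1 in AMB_W had 369.1, 410.4, 369.6 and 313.6 CPM, all below the 4 values of RL14_W (0.87 ± 0.24, adjusted p = 0.088). The most negative was Tnnt1 (-1.16 ± 1.00, adjusted p = 0.55). Between these groups 5.8S RNA did not overlap, with 0.2943 to 0.9983 CPM in RL14_W and 2.91 to 7.39 CPM in RL7_W, against 7.643 to 14.47 CPM in AMB_W.

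The fast troponins of RL14_W lay below the ambulatory range without passing the test. The libraries of these 2 groups did not overlap in 11 of 38 members and in 2933 of 16668 genes tested. Tnni2, which inhibits the actin and myosin interaction, had 2470, 3302, 3340 and 3550 CPM in RL14_W, against 4511, 4284, 4423 and 4579 CPM in AMB_W (-0.49 ± 0.23, edgeR adjusted p = 0.253). Tnnc2 had 1623, 2103, 2043 and 1905 CPM in RL14_W, against 2821, 2814, 2726 and 2795 CPM in AMB_W (-0.54 ± 0.23, adjusted p = 0.208). RL14_ML 1 and RL14_ML 6 belong to neither group, but they enter the gene filter, the scaling and the shared estimate of the spread. Without these libraries Tnnc2, Tnni2 and Tnnt3 passed, with Mylk2 and Myoz1, and so did 8.08% of all genes. Exons of Tnnc2 overlap those of Ube2c on the opposite strand by 592 bases.

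The effect of each drink was asked against water at the same time. During unloading 0 of 38 members changed with metformin, leucine or both, where 0%, 0.006% and 0.048% of all genes did, and 0, 0 and 2 members reached an unadjusted p under 0.05, where 3.88%, 2.99% and 6.23% of genes did (edgeR). DESeq2 called 0 members in each, and 0.0896%, 0.00828% and 0.215% of genes. The extremes were Mybpc2 (0.31 ± 0.18) and Tnnc1 (-1.05 ± 1.04) for HU_M, Actc1 (1.15 ± 0.98) and Myl2 (-0.34 ± 0.96) for HU_L, and Actc1 (2.59 ± 1.00) and Tnnt1 (-0.69 ± 0.98) for HU_ML, with adjusted p of 0.605 or more. Actc1 in HU_ML had 235.6, 35.4, 9.73 and 19.6 CPM, so that HU_ML 1 alone was far above the 4 HU_W libraries. Levels of 5.8S RNA ran from 10.03 to 12.26 CPM in HU_M, from 14.32 to 32.83 CPM in HU_L and from 2.07 to 8.823 CPM in HU_ML, against 7.993 to 13.81 CPM in HU_W. All 3 comparisons share the HU_W libraries.

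After 7 d of reloading 0 members changed with any drink, where 0.138% (RL7_M), 0.078% (RL7_L) and 0.006% (RL7_ML) of all genes did, and 2, 4 and 7 members reached an unadjusted p under 0.05, where 13.7%, 9.01% and 9.1% of genes did (edgeR). DESeq2 called 0 members in each, and 0.386%, 0.193% and 0.115% of genes. The 7 in RL7_ML against RL7_W were all higher, as were 5.77% of all genes, and no slow form was among them: Myoz1, Mybpc2, Myoz3, Mylpf, Tmod4, Acta1 and Myl1. Myoz1 had 960.9, 616.0, 662.5 and 593.8 CPM in RL7_ML, against 391.1, 486.5, 394.8 and 354.7 CPM in RL7_W (0.80 ± 0.24, edgeR adjusted p = 0.368), with no overlap. Acta1 had 16240, 12420, 14620 and 13200 CPM in RL7_ML, against 8483, 11220, 8359 and 6665 CPM in RL7_W (0.70 ± 0.25, adjusted p = 0.423), again with no overlap. The libraries of RL7_ML and RL7_W were apart in 8 of 38 members and in 1770 of 16668 genes tested. In RL7_ML the slow forms had a median log2 fold change of -0.824, with a median SE of 0.954, and Myoz2, the slow calsarcin, was the lowest, with 38.5, 27.04, 34.7 and 36.1 CPM in RL7_ML, against 72.7, 104.5, 43.97 and 62.6 CPM in RL7_W (-1.06 ± 0.76, adjusted p = 0.667). For RL7_M the extremes were Myoz1 (0.60 ± 0.24) and Lmod2 (-0.68 ± 0.57), and for RL7_L Actc1 (0.87 ± 0.93) and Tnnc1 (-1.09 ± 1.05). Levels of 5.8S RNA ran from 0.379 to 1.63 CPM in RL7_M, from 0.5334 to 1.137 CPM in RL7_L and from 0.5909 to 3.284 CPM in RL7_ML, against 2.91 to 7.39 CPM in RL7_W.

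After 14 d of reloading 4 members fell with metformin. In RL14_M against RL14_W, Myoz1 (chr14:20649107-20656540, minus strand, GRCm38), Mylk2 (chr2:152911352-152923068, plus), Unc45b and Tmod4 (chr3:95124476-95129209, plus) were lower and none was higher; of all genes tested 5.12% changed, 3.58% lower and 1.54% higher, and 16 members and 23.5% of genes had an unadjusted p under 0.05. Of the 4, 2 are fast forms and 2 are unassigned, and their proteins act in different places, at the Z disc (Myoz1), on the myosin light chain (Mylk2), in myosin folding (Unc45b) and at the pointed end of the thin filament, which the tropomodulin Tmod4 caps. Myoz1 had 298.7, 363.5, 384.6 and 264.4 CPM in RL14_M, against 581.4, 764.8, 804.8 and 523.1 CPM in RL14_W, a log2 fold change of -1.03 ± 0.25 (SE; edgeR adjusted p = 0.0176). Mylk2 had 273.2, 338.1, 329.6 and 290.3 CPM in RL14_M, against 414.8, 545.0, 520.9 and 459.3 CPM in RL14_W (-0.66 ± 0.17, edgeR adjusted p = 0.0203). For both genes every metformin library was below every water library. Unc45b had 123.0, 113.8, 147.9 and 112.2 CPM in RL14_M, against 163.1, 200.6, 180.3 and 164.8 CPM in RL14_W (-0.51 ± 0.13, edgeR adjusted p = 0.0226), again with no overlap, which held for 11 of 38 members and for 17.8% of all genes. Tmod4 had 164.9, 154.6, 190.3 and 134.5 CPM in RL14_M, against 179.8, 223.5, 215.5 and 251.0 CPM in RL14_W (-0.43 ± 0.13, edgeR adjusted p = 0.0485), where RL14_M 5 lay above RL14_W 1.

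The ambulatory means lay nearer to those of the metformin group in Myoz1 and Mylk2, a description with no test. Myoz1 averaged 328 ± 55.9 CPM in RL14_M and 669 ± 137 CPM in RL14_W, beside 366 ± 39.8 CPM in AMB_W (SD, n = 4 each). Mylk2 averaged 308 ± 31.1 CPM in RL14_M and 485 ± 59.1 CPM in RL14_W, beside 305 ± 79.8 CPM in AMB_W. Tmod4 averaged 161 ± 23.2 CPM in RL14_M and 217 ± 29.3 CPM in RL14_W, beside 209 ± 22.9 CPM in AMB_W, which lay nearer to the water group. Unc45b averaged 124 ± 16.5 CPM in RL14_M and 177 ± 17.4 CPM in RL14_W, beside 146 ± 7.11 CPM in AMB_W, between the 2 groups. Acta1 did not pass the test: it had 5820, 9403, 8904 and 6362 CPM in RL14_M, against 11900, 13200, 13370 and 10610 CPM in RL14_W (-0.69 ± 0.25, edgeR adjusted p = 0.088), beside 7940, 8615, 8256 and 7068 CPM in AMB_W.

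**Figure D4:**
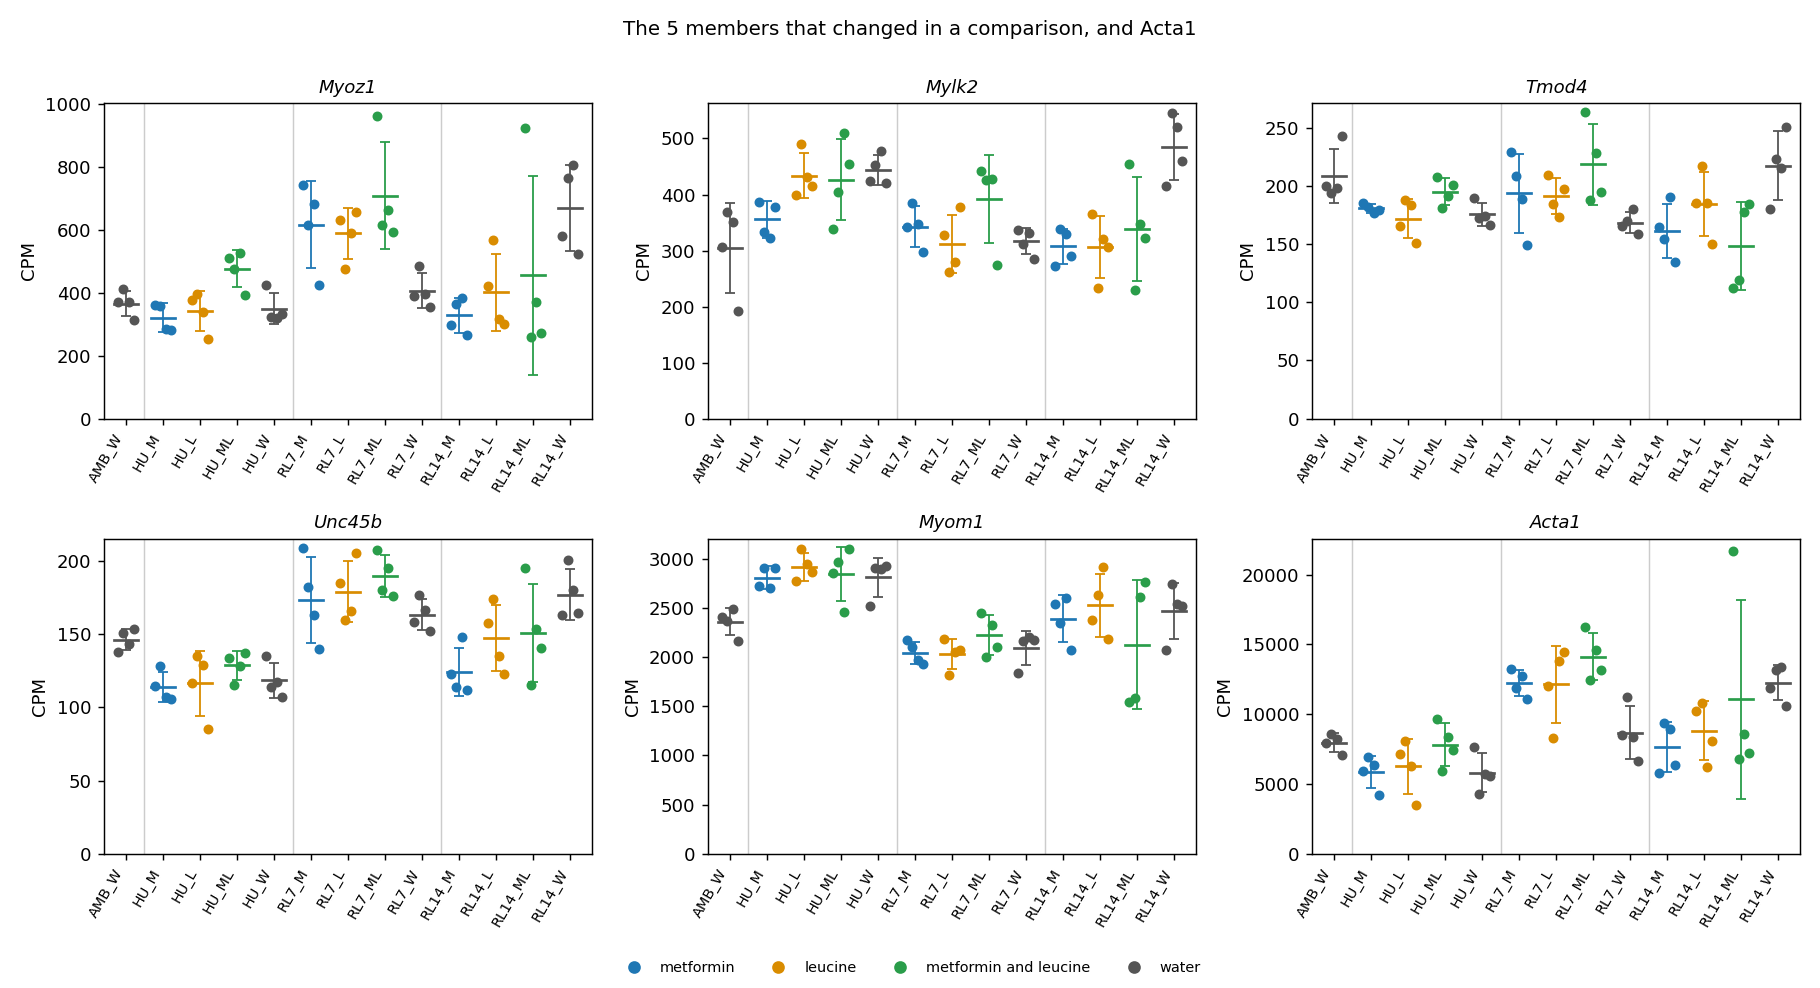
CPM of the 5 members that changed in a comparison (Myoz1, Mylk2, Tmod4, Unc45b and Myom1) and of Acta1 in the 13 groups; points are libraries, lines group means and bars the SD of 4 libraries. Myoz1 in RL14_W lies above 520 CPM in all 4 libraries, against at most 384.6 CPM in RL14_M, and RL14_ML 1 stands apart at 923.7 CPM of Myoz1 and 21690 CPM of Acta1.

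The calls in RL14_M against RL14_W depend on single libraries, the filter, the replicate block and a covariate. With 1 of the 8 libraries left out, Myoz1 and Mylk2 passed in 4 of 8 cases (adjusted p up to 0.104 and 0.108), Unc45b in 3 (up to 0.128) and Tmod4 in 2 (up to 0.221); 0 members passed without RL14_W 3, RL14_W 4, RL14_M 1 or RL14_M 6, where 0.242%, 0.377%, 1.57% and 0.425% of genes did. Without RL14_M 2 there were 2 members and 2.13% of genes, and without RL14_W 1 there were 7 members and 5.07% of genes. With no filter on low counts Mylk2 alone passed, and 0.538% of genes. Myoz1 and Unc45b passed with the replicate block, where 2.59% of genes did, and without the libraries over 16 CPM of Alb, where 3.21% of genes did; Mylk2 had an adjusted p of 0.0536 and 0.0531 there, and Tmod4 of 0.06 and 0.176. Other values moved with the comparison. 5.8S RNA ran from 11.56 to 23.04 CPM in RL14_M, against 0.2943 to 0.9983 CPM in RL14_W, and with it as a covariate 0 members and 0% of genes passed (Myoz1: -0.36, adjusted p = 0.999). Since the 5.8S ranges of the 2 groups do not overlap, metformin and 5.8S RNA cannot be told apart in that fit. All 5 red blood cell markers were higher, with summed levels of 9.861 to 61.46 CPM in RL14_M, against 2.691 to 4.427 CPM in RL14_W, and their part in the result was not tested. The muscle markers Ckm and Atp2a1 were lower (log2 fold changes -0.56 and -0.54, edgeR adjusted p = 0.0499 and 0.0395), as was Pvalb (-0.79, adjusted p = 0.0325). Of the other sarcomere genes 1 of 28 changed: Myh1 rose, to 3720 ± 1192 CPM in RL14_M, against 1420 ± 809 CPM in RL14_W (SD, n = 4 each; 1.39 ± 0.42, edgeR adjusted p = 0.046).

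The slow forms were higher on average in RL14_M than in RL14_W, with none past the adjusted threshold. Their log2 fold changes ran from 0.719 for Myl3 to 2.18 for Tnnt1, with a median of 1.43 and a median SE of 0.959. The median over all genes was -0.0114. Of the 8, 4 (Mybpc1, Myoz2, Tpm3 and Tnnt1) had an unadjusted p under 0.05 (edgeR), where 9.35% of all genes were higher at that level. The lowest adjusted p was 0.102 for Mybpc1 (edgeR), which had 1228, 1145, 780.2 and 1154 CPM in RL14_M, against 880.5, 168.1, 333.4 and 454.3 CPM in RL14_W. Myoz2 had 131.5, 123.3, 57.4 and 155.7 CPM in RL14_M, against 72.0, 2.59, 24.9 and 37.3 CPM in RL14_W. Myl2, the slow regulatory light chain, had 74.0, 86.4, 64.1 and 131.9 CPM in RL14_M, against 82.7, 0.489, 23.8 and 37.6 CPM in RL14_W. In each of these genes RL14_W 1 reached into the metformin range and RL14_W 3 was the lowest. Tnni1 had 9.17, 14.9, 13.7 and 24.2 CPM in RL14_M, against 21.1, 0.391, 8.71 and 4.82 CPM in RL14_W, and Myl3 had 41.8, 61.0, 24.4 and 65.1 CPM in RL14_M, against 76.0, 0.783, 22.0 and 18.3 CPM in RL14_W. The 5 slow-fibre genes outside the list summed to 677.2, 676.5, 591.7 and 1386 CPM in RL14_M, against 653.2, 36.01, 232.8 and 257.0 CPM in RL14_W. With 1 of the 8 libraries left out, Mybpc1, Actn2 and Lmod2 each passed in 1 case only. That case was without RL14_W 1 (edgeR adjusted p = 0.0339, 0.045 and 0.0242), and in the others adjusted p reached 0.291, 0.46 and 0.415. Positive fold changes of the slow forms were not limited to metformin, and none passed with the other drinks. All 8 were positive in RL14_L and in RL14_ML against RL14_W, with medians of 1.13 and 0.848 and median SE of 0.957 and 0.955. The lowest adjusted p were 0.325 and 0.52 (edgeR), and 8336 and 9049 of 16668 genes were positive. In RL14_W against RL7_W all 8 were negative (median -0.932, median SE 0.956), as were 8083 of 16668 genes. All these comparisons share the RL14_W libraries, and the slow forms moved together between libraries. Their agreement in sign therefore carries no test.

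With leucine for 14 d, 0 of 38 members changed in RL14_L against RL14_W, where 0.294% of all genes did; 6 members had an unadjusted p under 0.05, where 16.7% of genes did (edgeR), and DESeq2 called 1, Mylk2, and 1.19% of genes. Mylk2 had 365.0, 232.4, 320.3 and 306.7 CPM in RL14_L, against 414.8, 545.0, 520.9 and 459.3 CPM in RL14_W, with no overlap (-0.66 ± 0.17, edgeR adjusted p = 0.0588). With 1 of the 8 libraries left out, Mylk2 passed in 1 case, without RL14_L 1 (edgeR adjusted p from 0.0351 to 0.218). Tnnc2 had 3233, 3247, 3414 and 2419 CPM in RL14_L, against 1623, 2103, 2043 and 1905 CPM in RL14_W (0.68 ± 0.23, adjusted p = 0.137). Both genes separated the groups completely, as did 5 of 38 members and 10.1% of all genes. The extremes were Tnnt1 (1.94 ± 1.02, adjusted p = 0.329) and Myoz1 (-0.74 ± 0.24, adjusted p = 0.13). Myoz1 had 421.6, 567.5, 315.6 and 299.1 CPM in RL14_L, against 581.4, 764.8, 804.8 and 523.1 CPM in RL14_W, and only RL14_L 2 reached the water range. 5.8S RNA ran from 9.152 to 26.9 CPM in RL14_L, against 0.2943 to 0.9983 CPM in RL14_W. The liver transcript Alb was at 99.26 CPM in RL14_L 4, 814.5 CPM in RL14_L 5 and 77 CPM in RL14_W 5.

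With both drinks for 14 d, 1 member changed in RL14_ML against RL14_W, where 0.714% of all genes did and 0.342% were lower. Tmod4 fell, with 112.1, 118.9, 177.9 and 184.3 CPM in RL14_ML, against 179.8, 223.5, 215.5 and 251.0 CPM in RL14_W (-0.55 ± 0.14 SE, edgeR adjusted p = 0.0358), and RL14_ML 6 lay just above RL14_W 1. It passed in 4 of 8 cases with 1 library left out (adjusted p up to 0.165), and not with 5.8S RNA as a covariate (adjusted p = 0.868), in a fit of these 2 groups alone (adjusted p = 0.999), with the replicate block (adjusted p = 0.0937) or without the libraries over 16 CPM of Alb (adjusted p = 0.158). 5.8S RNA ran from 16.61 to 33.03 CPM in RL14_ML, against 0.2943 to 0.9983 CPM in RL14_W, so the drink and 5.8S RNA cannot be told apart in that fit. Of 5 red blood cell markers 1, Hbb-bs, was higher (log2 fold change 2.64, edgeR adjusted p = 0.0386), with summed levels of 5.251 to 21.91 CPM in RL14_ML, against 2.691 to 4.427 CPM in RL14_W, and their part in the result was not tested. The extremes were Tnnt1 (1.79 ± 1.01, adjusted p = 0.538) and Myoz1 (-0.55 ± 0.24, adjusted p = 0.378).

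Many extreme levels of the series lay in RL14_ML 1 and RL14_ML 6. RL14_ML 1 was the lowest of the series in Tnnt3, Tnni2, Tnnc2, Mylpf, Tpm1, Ttn, Myom1, Lmod3, Tmod4 and Smpx, and the highest in Acta1, Myoz3, Ldb3 and Synpo2l. Tnni2 had 877.9, 3893, 5003 and 5685 CPM in RL14_ML, against 2470, 3302, 3340 and 3550 CPM in RL14_W, and Tnnc2 had 835.8, 2456, 3051 and 4372 CPM in RL14_ML, against 1623, 2103, 2043 and 1905 CPM in RL14_W. In both genes RL14_ML 1 lay below all RL14_W libraries and the other 3 lay above them. Without RL14_ML 1, 10 members passed in RL14_ML against RL14_W: Acta1, Lmod3, Mylk2, Myoz1, Myoz3, Tmod4, Tnnc2, Tnni2, Tnnt3 and Unc45b, where 14.7% of all genes did. Myoz1 then had a log2 fold change of -1.16 (edgeR adjusted p = 0.00011), Tnni2 of 0.62 (adjusted p = 0.00159), Tnnc2 of 0.78 (adjusted p = 0.00164) and Tnnt3 of 0.64 (adjusted p = 0.0058). RL14_ML 1 was singled out by its levels in these same members, so these values are a description. Apart from Tmod4, none of the 10 passed with another library left out. Their edgeR adjusted p then reached 0.753 for Myoz1, 0.975 for Tnni2, 0.894 for Tnnc2 and 0.9 for Tnnt3. RL14_ML 6, with 18160 CPM of Tnnt3, held the highest level of Tnnt3, Tnni2, Tnnc2, Myl1, Tpm1, Neb and Lmod3. The 3 comparisons of 14 d share the RL14_W libraries.

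**Figure D5:**
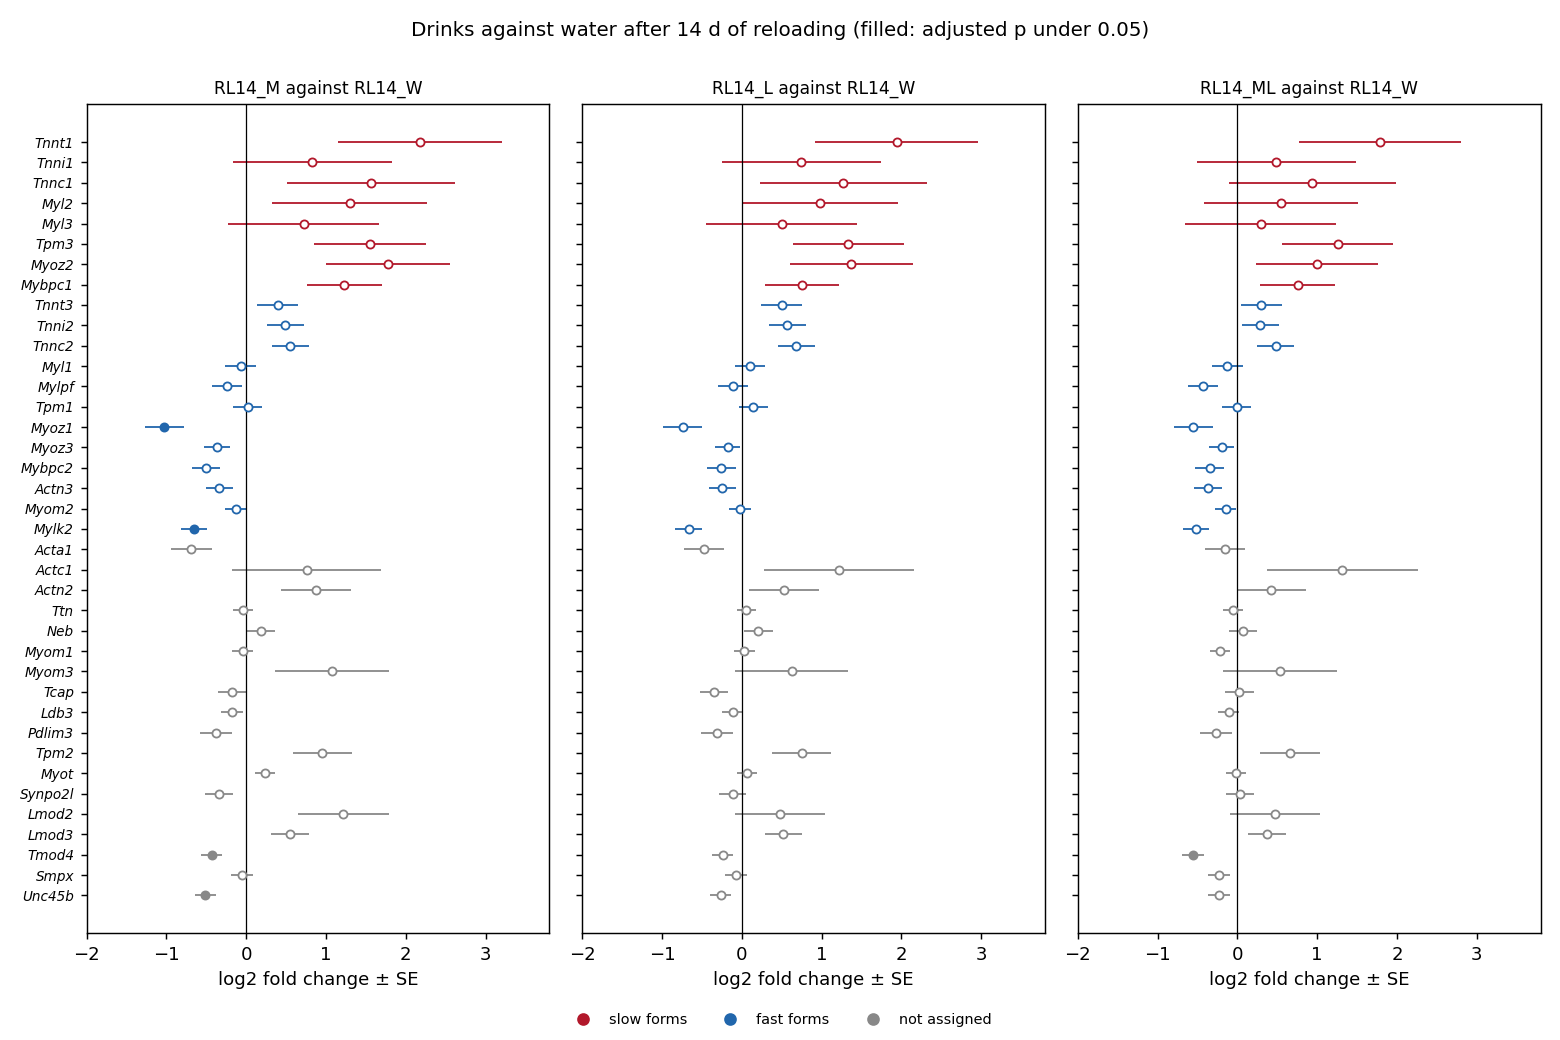
Log2 fold change of each of the 38 members, with its SE as a bar, in metformin, leucine and both drinks against water after 14 d of reloading; red marks slow forms, blue fast forms and grey the others, and filled points passed an adjusted p of 0.05. The slow forms at the top have the longest bars and no filled point, and the filled points are Myoz1, Mylk2, Tmod4 and Unc45b for RL14_M and Tmod4 for RL14_ML.

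Whether both drinks together differed from either alone was asked at each time, and 0 members changed in any of these 6 comparisons (edgeR). The shares of all genes called were 0.15% for HU_ML against HU_M, 0.096% for HU_ML against HU_L, 0% for both at 7 d, 0.024% for RL14_ML against RL14_M and 0% for RL14_ML against RL14_L. At an unadjusted p under 0.05 there were 5, 5, 0, 0, 3 and 2 members in that order, and 10.9%, 9.79%, 3.8%, 3.46%, 9.68% and 7.04% of genes. DESeq2 called 0 members in each, and 0.512%, 0.616%, 0%, 0.00828%, 0.0166% and 0.126% of genes in that order. The highest and lowest log2 fold changes belonged to Actc1 (2.30 ± 0.99) and Myoz2 (-0.27 ± 0.76) for HU_ML against HU_M, to Actc1 (1.44 ± 0.95) and Tnnt1 (-0.96 ± 0.99) for HU_ML against HU_L, to Actc1 (0.93 ± 0.93) and Myl2 (-0.96 ± 0.97) for RL7_ML against RL7_M, and to Tcap (0.33 ± 0.18) and Myl2 (-0.42 ± 0.96) for RL7_ML against RL7_L. At 14 d they were Actc1 (0.56 ± 0.93) and Myoz2 (-0.78 ± 0.76) against metformin, and Tcap (0.37 ± 0.18), the titin cap of the Z disc, and Myl2 (-0.44 ± 0.96) against leucine. All had an adjusted p of 0.396 or more.

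Whether the effect of a drink differed between the 3 times was tested with 6 interaction terms at once. No member passed, where 0.93% of all genes did, 7 members and 16.4% of genes had an unadjusted p under 0.05, and DESeq2 called 3 members (Mylk2, Myoz1 and Tmod4) and 2.87% of genes. The lowest adjusted p were 0.0623 for Tmod4 and 0.0648 for Myoz1 (edgeR). Myoz1 in metformin against water had a log2 fold change of 0.60 ± 0.24 after 7 d and of -1.03 ± 0.25 after 14 d. Without RL14_ML 1, 11 members and 15.5% of all genes passed the interaction test, but that library was singled out by its levels in these same members.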

How the data were processed

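Total RNA of 52 gastrocnemius samples was sequenced after removal of ribosomal RNA, with a stranded kit per the labels' protocols. The deposited values are raw read counts per gene that the authors made with STAR 2.7.3a and featureCounts 1.6.3 on GRCm38, per the submitters' processing notes, which also name DESeq2 1.30.0. The strand setting and annotation release are not given in the sources used here. Of 55487 gene IDs, 55227 matched GENCODE vM21 for symbols and exon length.

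All 52 libraries were fitted in 1 model of 13 group means with edgeR 4.0.16 (quasi-likelihood, TMM, R 4.3.3) on the 16668 genes kept by filterByExpr (minimum count 10), with 39 residual degrees of freedom. The Benjamini-Hochberg adjustment ran over all these genes, and a gene changed when its adjusted p was under 0.05. CPM use TMM-scaled totals of the tested genes, and the spread uses log2 CPM with a prior count of 2. The SE is that of the log2 fold change. The members, isoform groups and marker lists were chosen with earlier results of these data known. Any member may be named, values per library are given for members that changed, for Tnnt1 and Tnnt3 in all groups, and for the other slow and fast pairs in the comparisons described; the highest and lowest fold change are named where nothing changed. Genes counted without a known strand setting cannot be told from an overlapping antisense gene.

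The totals of 15605044 to 32492548 counts set the counting error. Each group has 4 libraries, of mice by the labels. The edgeR p-values rest on the spread between libraries within groups, estimated jointly over all 13 groups and not from the compared groups alone. The 78 pairs of libraries within groups all differed by more than sampling noise. On simulated data for HU_W against AMB_W (16385 genes), changes were planted only in genes above a floor of average level, each with its own spread. The test recovered 38.3% of 1.5-fold, 72.2% of 2-fold and 96.9% of 4-fold changes, with 10 false calls. These shares are for a mix of genes and were not computed for the slow forms, whose median SE in the real comparison was 0.955. Alternatives were no filter, other scaling, a replicate block, left-out libraries, 5.8S RNA as a covariate, a fit of the compared groups alone and DESeq2 1.42.0.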

Additional observations from a re-analysis of the deposited data

Results flagged for a closer look

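In each of the 13 groups of 4 libraries, the highest and the lowest CPM of every member was set against the gap to its nearest neighbour with Dixon's 95% criterion for 4 samples. It marked 31 of 494 sets of member and group, in 16 libraries, where chance marks about 1 in 20 sets. RL14_L 5, which also had the highest Alb level of the series (814.5 CPM), held 7 of them. This library was high in the slow forms Tnnc1 (68.3 CPM), Myl2 (143.9 CPM) and Myl3 (83.9 CPM), and low in the fast forms Tnni2 (3896 CPM), Tnnc2 (2419 CPM), Tpm1 (8410 CPM) and Myom2 (1378 CPM). RL14_M 6 was likewise high in Tnnc1 (68.4 CPM) and low in Myom2 (1236 CPM), and RL14_ML 3 was high in Myl3 (96.9 CPM).

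RL14_M 5 was low in Mybpc1 (780.2 CPM) and Myom3 (46.02 CPM) and high in Synpo2l (166.0 CPM). RL14_W 1 was low in Tnnt3 (6111 CPM), Tpm1 (7372 CPM) and Pdlim3 (343.1 CPM), and RL14_W 3 was high in Myoz3 (253.2 CPM). HU_L 5 was low in Tnni1 (5.61 CPM) and Myl3 (16.3 CPM). HU_W 1 was high in Myoz1 (423.5 CPM) and low in Myom1 (2520 CPM), and HU_W 4 was low in Myl1 (3858 CPM). AMB_W 5 was low in Mybpc2 (4188 CPM) and high in Tmod4 (242.6 CPM).

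Among the libraries of 7 d, RL7_M 4 was low in Neb (15700 CPM) and Smpx (66.3 CPM), RL7_ML 1 was high in Tcap (904.6 CPM) and RL7_ML 6 was low in Mylk2 (274.8 CPM). RL7_W 1 was low in Myom1 (1838 CPM), RL7_W 3 was low in Lmod2 (83.7 CPM) and RL7_W 4 was high in Myot (1022 CPM).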

How the results depend on the processing

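The number of members changed stayed within 1.5 times its main value in 317 of 376 alternative values, and 10 of 21 results were 0 under every setting run. The main count was above 0 only in RL7_W against HU_W, RL14_M against RL14_W and RL14_ML against RL14_W. Most of the 376 values therefore only asked whether a count of 0 stayed 0. In the comparisons with a call the count moved in several settings, as given below. The cause of the differences below was not tested. In HU_W against AMB_W the count of 0 became 1 without RL14_ML 1 and RL14_ML 6, 6 in a fit of the compared groups alone and 1 with DESeq2, and it was 0 to 1 with 1 library left out (1 without AMB_W 3). In RL7_W against HU_W the count of 2 became 0 with no filter, 1 without the libraries over 16 CPM of Alb, 5 without RL14_ML 1 and RL14_ML 6, 0 with the 5.8S covariate, 8 in the groups alone and 6 with DESeq2, and 0 to 2 with 1 library left out. In RL7_W against AMB_W it became 2 in the groups alone. In RL14_W against RL7_W it became 2 without RL14_ML 1 and RL14_ML 6 and 2 in the groups alone. In RL14_W against AMB_W these settings gave 5 and 7, and DESeq2 gave 2. In RL7_M against RL7_W 1 member passed without RL14_ML 1 and RL14_ML 6, and in RL7_ML against RL7_W 1 passed there and 6 in the groups alone. In RL14_M against RL14_W the count of 4 became 1 with no filter, 2 without the Alb libraries, 9 without RL14_ML 1 and RL14_ML 6, 0 with the 5.8S covariate and 11 in the groups alone, and 0 to 7 with 1 library left out. In RL14_L against RL14_W it became 5 without RL14_ML 1 and RL14_ML 6, 2 in the groups alone and 1 with DESeq2, and 0 to 1 with 1 library left out. In RL14_ML against RL14_W the count of 1 became 0 without the Alb libraries, 4 without RL14_ML 1 and RL14_ML 6, 0 with the 5.8S covariate and 0 in the groups alone, and 0 to 10 with 1 library left out. The interaction count of 0 became 11 without RL14_ML 1 and RL14_ML 6 and 3 with DESeq2, and 0 to 11 with 1 library left out (1 without RL7_M 4, RL14_L 2, RL14_ML 4 or RL14_ML 6).

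The replicate numbers showed no steady pairing of the samples. The correlation of deviations between same-numbered libraries ran from -0.289 to 0.39 over 20 comparisons. In 0 of the 13 with at least 3 shared numbers were all over 0.1. RL14_ML against RL14_L, with 2 shared numbers, had 0.117 and 0.204. Whether a number marks a shared cage or batch was not tested. With the replicate block, 2 members passed in RL7_W against HU_W, 2 in RL14_M against RL14_W, 0 in RL14_ML against RL14_W, 1 in the interaction and 0 in each of the others.

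Of 736 fold changes of named members under alternatives 725 kept their direction. Tnnt1 in HU_ML against HU_W turned to 0.115 without the Alb libraries, and Myoz1 in RL14_ML against RL14_W to 0.148 with the 5.8S covariate. The Myoz2 log2 fold change in HU_ML against HU_M turned to 0.435 without the Alb libraries, 0.161 without HU_M 1 and 0.0701 without HU_ML 6 (-0.847 to 0.161 with 1 library left out). The Actc1 log2 fold change in HU_ML against HU_L turned to -0.351 without HU_ML 1 (-0.351 to 2.36). The Actc1 log2 fold change in RL14_ML against RL14_M turned to -0.134 without RL14_ML 3 (-0.134 to 1.83). The Myl2 log2 fold change in RL7_ML against RL7_L turned to 2.06 without RL7_L 3 (-0.832 to 2.06). The Myl2 log2 fold change in RL14_ML against RL14_L turned to 0.137 without the Alb libraries, 0.128 without RL14_ML 1 and RL14_ML 6 and 0.151 without RL14_L 5 (-1.23 to 0.151). Slow forms at 7 to 13 counts in the lowest libraries are limited by depth there.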
